A study of Mus musculus with 24 samples.

Results

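RNA levels of 9 mouse genes of proximal sodium, acid and water transport were followed in kidneys of mice with (WT) and without (KO) megalin in renal proximal tubule cells: Slc9a3, Slc9a3r1, Pdzk1, Slc4a4, Car2, Car4, Aqp1, Atp1b1 and Fxyd2. The genes were chosen by symbol and matched through their Ensembl identifiers, 9 of the 54532 identifiers in the files, and all 9 passed the filter on low counts that left 17286 genes for testing. These 9 were chosen with earlier results of these data known. At 12 weeks of Western diet 8 of the 9 genes fell in KO kidneys and none rose, where 38.5% of all tested genes passed the test and 17.7% were lower. At 2 weeks 5 fell and none rose, where 31.6% of all tested genes passed and 13.4% were lower. The largest falls were those of Slc4a4 at 12 weeks, by 39.7%, and of Pdzk1 at 2 weeks, by 37.7%.

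The proximal tubule reclaims most of the filtered sodium, bicarbonate and water. Sodium enters across the brush border in exchange for protons through the exchanger encoded by Slc9a3, carbonic anhydrases turn the secreted protons and filtered bicarbonate into carbon dioxide and water and back, and bicarbonate leaves with sodium across the basolateral membrane through the cotransporter encoded by Slc4a4. Water follows through aquaporin-1, and the basolateral sodium pump keeps sodium inside the cell low. Several of these genes are known outside the proximal tubule as well: Aqp1 in the descending thin limb and in endothelium, Car2 in intercalated cells, and Atp1b1 and Fxyd2 along much of the nephron.

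The data are bulk RNA sequencing of 24 mouse kidney samples in 4 groups of 6: KO and WT after 12 weeks of Western diet, and KO and WT after 2 weeks. KO and WT stand for the -/- and +/+ mice of a line the labels call PTC LRP2-SM22, and the series title gives the deletion of megalin (Lrp2, the endocytic receptor of the brush border) as specific to renal proximal tubule cells. The promoter that drives the deletion, the meaning of SM22, the age of the mice and the cells in which the gene is retained are not stated in the labels or title, and every group was on the Western diet. The labels do not say that each library is a separate mouse, so p-values measure the spread between these samples, which may be technical.

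Library totals were 11.33 to 15.24 megacounts (M) in KO and 11.35 to 14.53 M in WT at 12 weeks, and 16.31 to 25.18 M in KO and 15.6 to 34.06 M in WT at 2 weeks. Levels are given as CPM, counts per megacount of the scaled library. Lrp2 had 186 to 390 CPM in KO, against 1410 to 2503 CPM in WT, at 12 weeks, and 192 to 584 CPM in KO, against 1588 to 2289 CPM in WT, at 2 weeks, so the genotype labels held in all 24 libraries. KO replicate 2 at 12 weeks stood apart most: the correlation of its log2 CPM with the mean of the other libraries of its group was 0.975, the lowest of the 24, and 7 of the 9 genes were at their lowest of the group in it. The predicted gene Gm42418 had no counts in any library at 2 weeks and took 0.496% to 3.54% of counts at 12 weeks, so the libraries of the 2 durations differ in more than the time on diet.

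The start regions of 4 genes that fell at both durations are shown to set side by side the promoter elements of genes that fell together. They run from 220 bases before to 30 bases after the RefSeq start of the gene on GRCm38.p6, 5′ to 3′, and capitals mark matches on either strand to GGGCGG (a GC box) or CAAAGTCCA (a site of HNF4, a nuclear receptor of proximal tubule and liver). The regions are chr13:74121193-74121442 for Slc9a3, chr3:96829845-96830094 for the first of the 2 starts of Pdzk1, chr11:84957534-84957783 for Car4 and chr6:55336079-55336328 for Aqp1, all on the plus strand.
Slc9a3: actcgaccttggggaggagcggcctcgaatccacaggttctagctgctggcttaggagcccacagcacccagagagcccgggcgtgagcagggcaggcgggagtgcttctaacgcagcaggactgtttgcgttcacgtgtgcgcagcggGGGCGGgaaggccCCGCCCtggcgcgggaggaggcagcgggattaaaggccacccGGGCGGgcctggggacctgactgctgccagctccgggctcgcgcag
Pdzk1: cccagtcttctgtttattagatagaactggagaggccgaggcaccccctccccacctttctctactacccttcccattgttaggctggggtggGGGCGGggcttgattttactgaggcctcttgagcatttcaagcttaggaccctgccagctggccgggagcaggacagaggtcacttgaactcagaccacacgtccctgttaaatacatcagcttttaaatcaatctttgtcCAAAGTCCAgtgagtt
Car4: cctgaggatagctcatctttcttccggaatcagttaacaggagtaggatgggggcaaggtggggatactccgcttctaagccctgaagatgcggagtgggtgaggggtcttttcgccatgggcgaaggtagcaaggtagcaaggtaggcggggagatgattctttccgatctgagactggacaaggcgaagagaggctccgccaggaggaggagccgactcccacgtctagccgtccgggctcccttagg
Aqp1: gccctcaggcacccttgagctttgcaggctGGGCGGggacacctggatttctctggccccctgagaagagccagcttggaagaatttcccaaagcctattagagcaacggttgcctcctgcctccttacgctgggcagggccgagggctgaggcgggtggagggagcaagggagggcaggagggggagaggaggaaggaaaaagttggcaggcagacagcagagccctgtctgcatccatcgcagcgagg

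None of the exact sequences searched was found in all 4 regions, and other elements were not searched. In the whole window of 300 bases, from 250 before to 50 after the start, Slc9a3 held 3 GC boxes, Pdzk1 1 and Aqp1 1, and 35.7% of the 32851 promoters in the RefSeq table hold at least 1. The HNF4 match lies 15 bases into Pdzk1, and 0.475% of all promoters hold this sequence; the second Pdzk1 start had no match to any motif searched. Car4 had a match to TATAAA, which 13.6% of promoters hold, but 43 bases after its start and outside the stretch shown. GTTAAT, a half-site of HNF1, was found in none of the windows of the 7 genes that have an entry and in 7.1% of all promoters. The others with an entry were Slc9a3r1, Slc4a4 and Atp1b1. Car2 and Fxyd2 are named only. Matches describe these letters and were not tested as binding sites.

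Per kilobase of exon, the subunits of the sodium pump were the most abundant of the 9 transcripts and Slc9a3 the least. In RPKM, counts per megacount and per kilobase of exon, the mean level of Atp1b1 at 12 weeks was 468 ± 86.7 in KO and 628 ± 69.8 in WT, and that of Slc9a3 was 18.8 ± 3.55 in KO and 28.1 ± 4.61 in WT (SD, n = 6 libraries in each group). In WT kidneys at 12 weeks the levels ran from Atp1b1 through Fxyd2, Pdzk1, Aqp1, Car2, Slc9a3r1, Slc4a4 and Car4 to Slc9a3. Ranges of 1 SD around the mean overlapped between Fxyd2 and Pdzk1, Pdzk1 and Aqp1, Car2 and Slc9a3r1, and Slc4a4 and Car4. In WT at 2 weeks Pdzk1 stood behind Aqp1, and in KO at 2 weeks behind Slc9a3r1 and Car2 too. The lengths used set part of this order: Fxyd2 has 4005 bases of annotated exon but 210 of coding sequence, and per kilobase of coding sequence it led Atp1b1 in all 4 groups.

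**Figure D1:**
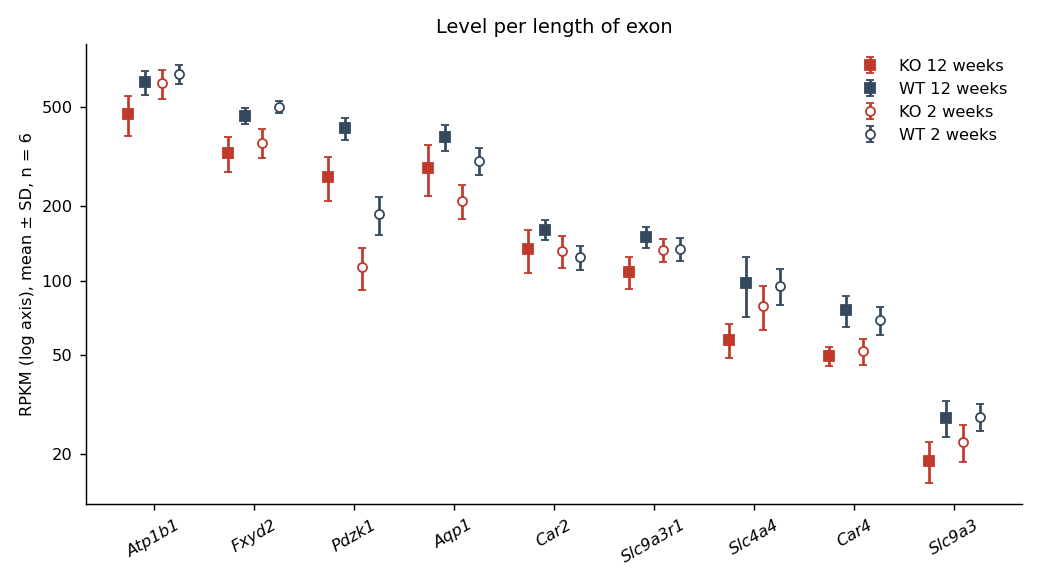
Mean level in RPKM on a log axis, with bars of 1 SD over 6 libraries, for the 9 genes in KO and WT at 12 weeks (filled squares) and at 2 weeks (open circles). Atp1b1 is at the top in each group, Slc9a3 at the bottom, and Pdzk1 is higher at 12 than at 2 weeks in both genotypes.

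Genotype differences were tested with edgeR's quasi-likelihood test within each duration, adjusted by Benjamini-Hochberg over all 17286 genes at 0.05. At 12 weeks 8 of the 9 genes passed, all lower in KO, where 38.5% of all tested genes passed, 17.7% lower and 20.7% higher in KO. At 2 weeks 5 of the 9 passed, all lower, against 31.6% of all tested genes, 13.4% lower and 18.2% higher. The median log2 fold change of the 9 genes was -0.47 at 12 weeks and -0.31 at 2 weeks, while the median over all tested genes was 0.0 at 12 weeks and -0.0050 at 2 weeks. Every KO library lay below every WT library for 4 of the 9 genes at 12 weeks, as for 8.3% of tested genes, and for 2 of the 9 at 2 weeks, as for 6.32% of tested genes. In bulk kidney RNA, fewer cells of a type and less RNA per cell cannot be told apart.

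**Figure D2:**
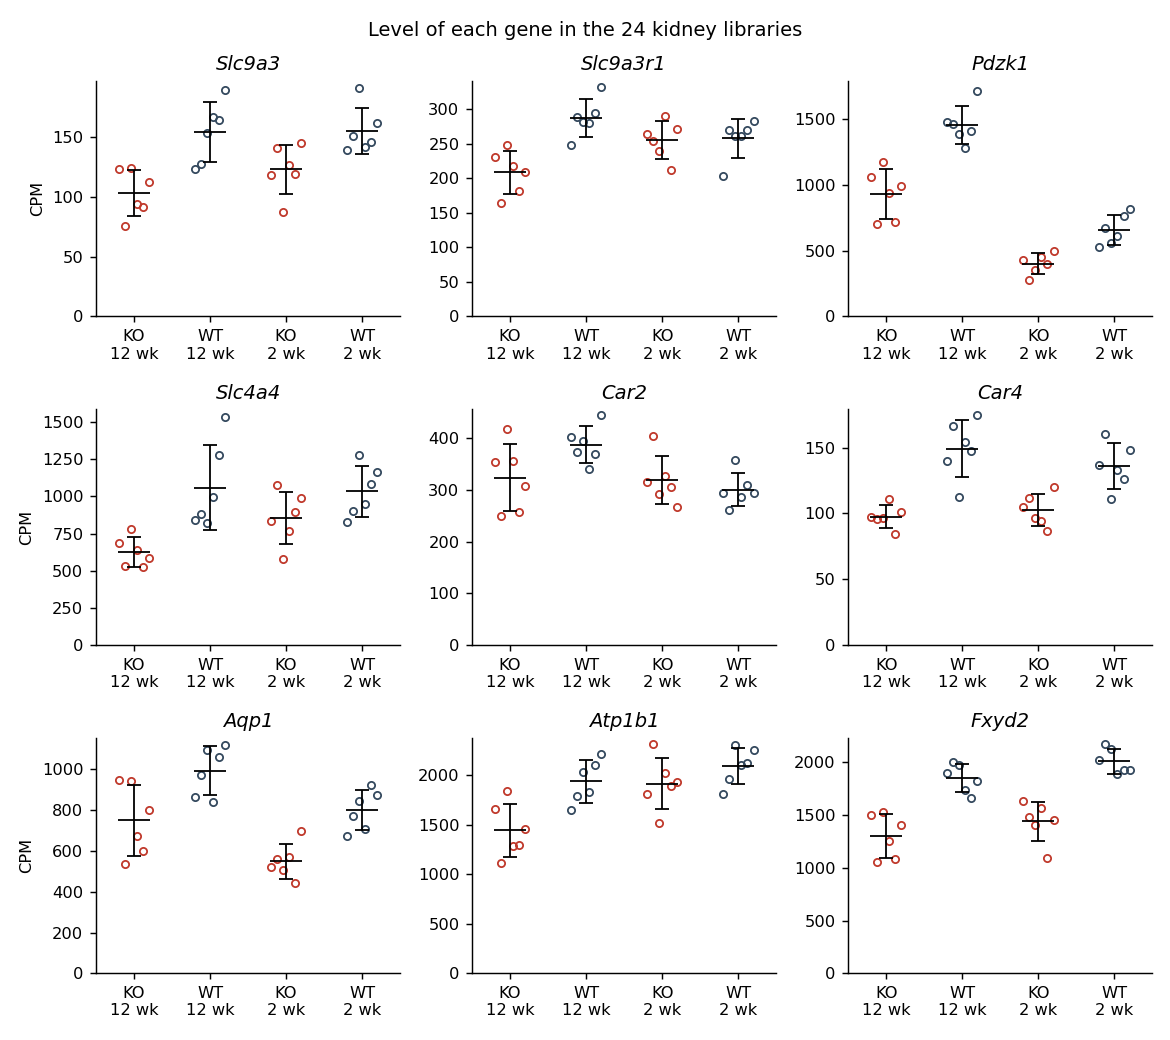
CPM of each of the 9 genes in the 6 libraries (circles) of KO and WT at 12 weeks and of KO and WT at 2 weeks, with the mean and 1 SD in black. KO and WT circles do not overlap for Pdzk1 and Fxyd2 at either duration, nor for Slc4a4 and Car4 at 12 weeks.

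**Figure D3:**
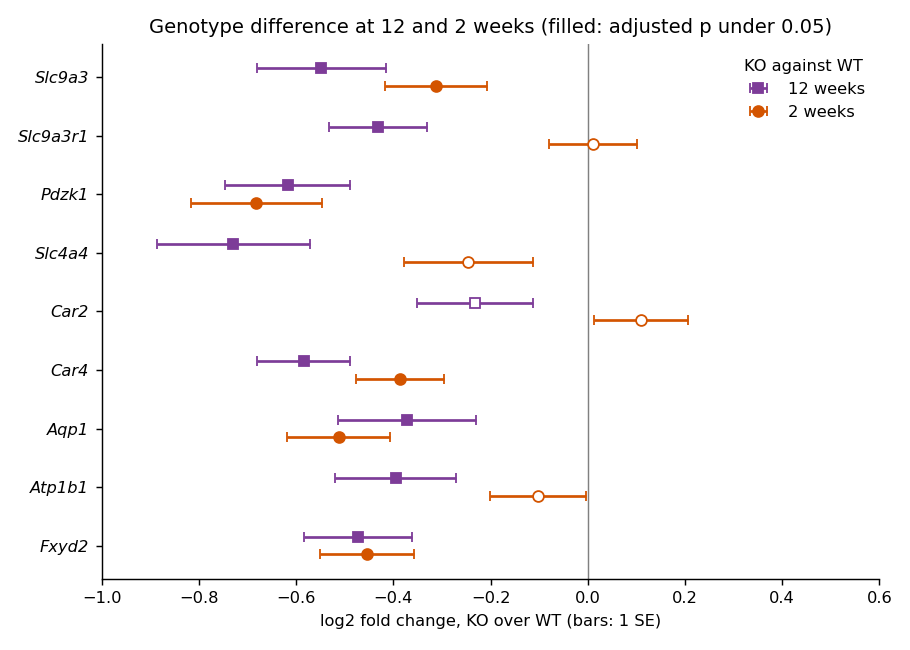
Log2 fold change of KO over WT with 1 SE at 12 weeks (squares) and 2 weeks (circles), filled where the adjusted p is under 0.05. All 9 values lie below 0 at 12 weeks, from -0.73 for Slc4a4 to -0.23 for Car2, and 7 of 9 do at 2 weeks.

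Slc9a3 (ENSMUSG00000036123, chr13:74121457-74169442 on mm10, plus strand) encodes NHE3, the brush border exchanger that takes up sodium and secretes protons. At 12 weeks its lowest, median and highest levels were 75.8, 103 and 124 CPM in KO, against 124, 159 and 190.1 CPM in WT, and at 2 weeks they were 87.3, 123 and 145 CPM in KO, against 139.8, 149 and 191 CPM in WT. Only the highest KO libraries reached the range of WT at either duration. It fell by 31.6% at 12 weeks (log2 fold change -0.55, SE 0.13, edgeR adjusted p = 0.00471) and by 19.4% at 2 weeks (-0.31, SE 0.11, edgeR adjusted p = 0.03). The call at 2 weeks ended, at adjusted p from 0.0582 to 0.0843, without any one of KO replicates 1, 3 and 5 or WT replicates 3 and 6.

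Slc9a3r1 and Pdzk1 encode the PDZ proteins NHERF1 and NHERF3, which hold NHE3, phosphate transporters and other proteins in the brush border. Slc9a3r1 (ENSMUSG00000020733, chr11:115163341-115181181, plus strand) had 165, 214 and 249 CPM as lowest, median and highest level in KO, against 248, 286 and 333 CPM in WT, at 12 weeks. Of these libraries, 1 in KO exceeded 1 in WT, by less than 1 CPM, and the fall was 25.9% (log2 fold change -0.43, SE 0.10, edgeR adjusted p = 0.00353). At 2 weeks the levels were 213, 259.6 and 291 CPM in KO, against 203, 266 and 283 CPM in WT, with a log2 fold change of 0.01 (SE 0.09, edgeR adjusted p = 0.946). The ranges at 2 weeks lay nearly on top of each other.

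Pdzk1 (ENSMUSG00000038298, chr3:96829284-96870926, plus strand) had 699.6, 964 and 1175 CPM in KO at 12 weeks, against 1285, 1438 and 1718 CPM in WT. At 2 weeks it had 277, 417 and 495 CPM in KO, against 525, 642 and 821 CPM in WT. The groups did not overlap at either duration, and the falls were 34.8% at 12 weeks (log2 fold change -0.62, SE 0.13, edgeR adjusted p = 0.00164) and 37.7% at 2 weeks (-0.68, SE 0.14, edgeR adjusted p = 0.00085). Pdzk1 shares 1333 of its 3556 exon bases with Gpr89 on the opposite strand. The counting's treatment of strand is not stated, so whether reads there were counted for Pdzk1, for Gpr89 or left out is not known.

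Slc4a4 (ENSMUSG00000060961, chr5:88886818-89239653, plus strand) encodes NBCe1, through which bicarbonate leaves the proximal cell together with sodium. At 12 weeks it had 525, 614 and 778 CPM in KO, against 824, 939 and 1534 CPM in WT, and the groups did not overlap. That fall of 39.7% was the largest of the 9 at this duration (log2 fold change -0.73, SE 0.16, edgeR adjusted p = 0.00211), and 3.73% of tested genes had a fold change as low or lower. At 2 weeks it had 579, 867 and 1076 CPM in KO, against 825, 1015 and 1279 CPM in WT, with overlapping groups and a log2 fold change of -0.25 (SE 0.13) that did not pass (edgeR adjusted p = 0.174). RefSeq gives Slc4a4 2 starts, and counts per gene do not separate the transcripts.

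Of the carbonic anhydrases, Car4, the enzyme anchored in the tubule cell membrane, fell at both durations, and Car2, the enzyme of the cytosol, passed at neither. Car4 (ENSMUSG00000000805, chr11:84957786-84966044, plus strand) had 84.2, 96.8 and 111 CPM in KO, against 113, 151 and 174 CPM in WT, at 12 weeks. At 2 weeks it had 86.6, 101 and 119.7 CPM in KO, against 111, 135 and 160.7 CPM in WT. Groups were apart at 12 weeks and overlapped through the 2 highest KO libraries at 2 weeks. The fall was 33.3% at 12 weeks (-0.58 on the log2 scale, SE 0.10, edgeR adjusted p = 0.00028) and 23.5% at 2 weeks (-0.39, SE 0.09, edgeR adjusted p = 0.00311).

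Car2 (ENSMUSG00000027562, chr3:14886273-14900770, plus strand) had 249, 331 and 418 CPM in KO, against 341, 384 and 446 CPM in WT, at 12 weeks, and 267, 311 and 404 CPM in KO, against 262, 294 and 359 CPM in WT, at 2 weeks. Both pairs of groups overlapped. The log2 fold change was -0.23 (SE 0.12, edgeR adjusted p = 0.14) at 12 weeks and 0.11 (SE 0.10, edgeR adjusted p = 0.425) at 2 weeks. Without KO replicate 3 at 12 weeks, whose Car2 level was the highest of its group, the difference passed at -0.32 (edgeR adjusted p = 0.0323).

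Aqp1 (ENSMUSG00000004655, chr6:55336432-55348555, plus strand) encodes aquaporin-1, the water channel of both membranes of the proximal cell. At 12 weeks it had 535, 737 and 946 CPM in KO, against 838, 1016 and 1118 CPM in WT, and at 2 weeks 443, 539 and 699 CPM in KO, against 673, 807 and 919 CPM in WT. The groups overlapped at both durations, at 2 weeks through the highest KO library. Aqp1 fell by 22.8% at 12 weeks (log2 fold change -0.37, SE 0.14, edgeR adjusted p = 0.049) and by 29.9% at 2 weeks (-0.51, SE 0.11, edgeR adjusted p = 0.00104). Its value at 12 weeks lay at the threshold: it was lost on leaving out any one of 8 libraries (KO replicates 2, 4, 5 and 6, WT replicates 2, 3, 5 and 6), with adjusted p up to 0.107, and under another scaling or filter.

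The sodium pump was represented by its beta subunit Atp1b1 and by Fxyd2, the gamma subunit, a small membrane protein that modulates the pump. Atp1b1 (ENSMUSG00000026576, chr1:164437109-164458355, minus strand) had 1112, 1380 and 1839 CPM in KO, against 1646, 1928 and 2217 CPM in WT, at 12 weeks. At 2 weeks it had 1518, 1913 and 2315 CPM in KO, against 1813, 2113 and 2302 CPM in WT. The groups overlapped at both durations. It fell by 23.96% at 12 weeks (log2 fold change -0.40, SE 0.12, edgeR adjusted p = 0.0202), and at 2 weeks the log2 fold change was -0.10 (SE 0.10, edgeR adjusted p = 0.476). Atp1b1 shares 575 of 3081 exon bases with Nme7 on the opposite strand, with the same limit as for Pdzk1.

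Fxyd2 (ENSMUSG00000059412, chr9:45399669-45410278, plus strand) had 1052, 1327 and 1530.4 CPM in KO, against 1664, 1857 and 1997 CPM in WT, at 12 weeks. At 2 weeks the values were 1095, 1467 and 1634 CPM in KO, against 1889, 1971 and 2172 CPM in WT. No KO library reached the lowest WT library at either duration. The falls were of like size, 27.9% at 12 weeks (log2 fold change -0.47, SE 0.11, edgeR adjusted p = 0.00359) and 27.0% at 2 weeks (-0.45, SE 0.10, edgeR adjusted p = 0.00138).

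Whether the genotype difference itself depended on duration was tested as an interaction over the 24 libraries. None of the 9 genes passed with edgeR's quasi-likelihood test, as none did with DESeq2, where 30 genes in all, 0.174% of those tested, passed with edgeR. At an unadjusted p under 0.05 there were 3 of the 9, against 10.6% of all tested genes and 5.13% with a lower value, each with the KO value lower relative to WT at 12 weeks than at 2 weeks: Slc9a3r1 (interaction log2 fold change -0.45, SE 0.14, edgeR adjusted p = 0.196), Slc4a4 (-0.49, SE 0.22, edgeR adjusted p = 0.43) and Car2 (-0.35, SE 0.16, edgeR adjusted p = 0.438). So the genes that passed at 12 weeks and not at 2 weeks, Slc9a3r1, Slc4a4 and Atp1b1, were not shown to differ between durations. Over all genes the interaction count was 154 with DESeq2, and 56 with edgeR without KO replicate 3 at 12 weeks.

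Between durations, Pdzk1 moved most. It was 2.31-fold higher at 12 than at 2 weeks in KO (log2 fold change 1.21, SE 0.14, edgeR adjusted p = 9.84e-08) and 2.21-fold higher in WT (1.15, SE 0.14, edgeR adjusted p = 2.24e-07), and in both genotypes all 12-week libraries lay above all 2-week libraries. Pdzk1 shares 1333 of its 3556 exon bases with Gpr89 on the opposite strand, and how strand was counted is not stated for either duration. Gpr89 had 10687 counts summed over the 24 libraries, against 4890 to 20515 counts of Pdzk1 in each library. Whether the counting of reads in the shared bases takes part in this difference was not tested. In KO, 5 of the 9 genes passed, against 33.8% of all tested genes: Pdzk1 and Aqp1 were higher at 12 weeks (17.7% of tested genes were), and Slc9a3r1, Slc4a4 and Atp1b1 lower (16.1% were). Aqp1 was higher by 0.45 on the log2 scale (SE 0.13, edgeR adjusted p = 0.00881), Slc9a3r1 lower at -0.29 (SE 0.10, edgeR adjusted p = 0.0228), Slc4a4 at -0.46 (SE 0.16, edgeR adjusted p = 0.0255) and Atp1b1 at -0.41 (SE 0.11, edgeR adjusted p = 0.0066). Leaving out KO replicate 2 or KO replicate 5 at 12 weeks left 3 of the 5, without Slc9a3r1 and Slc4a4, and each of these also failed without 1 library at 2 weeks, KO replicate 4 for Slc9a3r1 and KO replicate 2 for Slc4a4. Without KO replicate 3 at 2 weeks, Slc9a3 passed too, at -0.33 (edgeR adjusted p = 0.0309).

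In WT, 2 of the 9 genes passed between durations, Pdzk1 and Car2, both higher at 12 weeks, where 30.4% of tested genes passed, 15.8% higher and 14.7% lower. Car2 was 1.29-fold higher (log2 fold change 0.37, SE 0.11, edgeR adjusted p = 0.0137). Both duration comparisons share the libraries of the genotype comparisons, and duration cannot be told apart from whatever else separates the 2 sets of libraries, depth and Gm42418 among it.

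Markers of cell types were counted between durations beside these genes. Of all tested genes, 16.1% were lower and 17.7% higher at 12 weeks in KO, and 14.7% lower and 15.8% higher in WT. The counts of proximal tubule markers, and those of thick ascending limb markers in KO, lay below these shares. In KO, lower at 12 than at 2 weeks were 6 of 8 tubular injury markers, 5 of 6 principal cell markers, 4 of 6 distal convoluted and connecting tubule markers, 3 of 8 intercalated cell markers, 1 of 7 thick ascending limb markers and 2 of 17 proximal tubule markers. Higher in KO were 4 of 5 podocyte markers, 3 of 10 endothelial markers, 3 of 7 fibroblast markers and 1 principal cell marker. In WT, lower at 12 weeks were 7 of 7 thick ascending limb markers, 5 of 6 principal cell markers, 4 of 6 distal convoluted and connecting tubule markers, 4 of 6 red cell markers, 2 of 8 intercalated cell markers and 2 of 8 tubular injury markers. Higher in WT were 6 of 10 endothelial markers, 2 of 5 podocyte markers, 2 of 7 fibroblast markers, 2 of 17 proximal tubule markers, 2 of 8 tubular injury markers and 1 principal cell marker. That principal cell marker was Avpr2 in both genotypes. Its median was 11.2 CPM at 12 weeks and 0.636 CPM at 2 weeks in KO, and 14.0 and 0.440 CPM in WT. Avpr2 shares 2347 of 2886 exon bases with Arhgap4 on the opposite strand, and how reads there were counted is not known. No macrophage or descending thin limb marker passed in either genotype, nor did a red cell marker in KO. The podocyte sum was 447 to 712.5 CPM at 12 weeks and 321 to 394.8 CPM at 2 weeks in KO, and 421 to 636 CPM at 12 weeks and 349.0 to 417 CPM at 2 weeks in WT. The red cell sum was 4.74 to 69.6 CPM at 12 weeks and 10.6 to 168 CPM at 2 weeks in KO, and 4.43 to 30.4 CPM at 12 weeks and 25.5 to 97.7 CPM at 2 weeks in WT. The part of these markers in the duration differences of the 9 genes was not tested.

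Within libraries the genes moved together. KO replicate 2 at 12 weeks was the lowest of its group for 7 of the 9 genes and KO replicate 3 the highest for 7. WT replicate 6 at 12 weeks was the highest of its group for 8, and WT replicate 1 at 2 weeks, the deepest library, the lowest for 6. After each group's mean was removed, the correlation of log2 CPM between 2 of the genes over the 24 libraries was above 0 for 35 of the 36 pairs, with a median of 0.516. It was highest for Slc9a3 with Atp1b1, at 0.883, and lowest for Car2 with Car4, at -0.0277. These values share library and scaling and are given as a description.

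**Figure D4:**
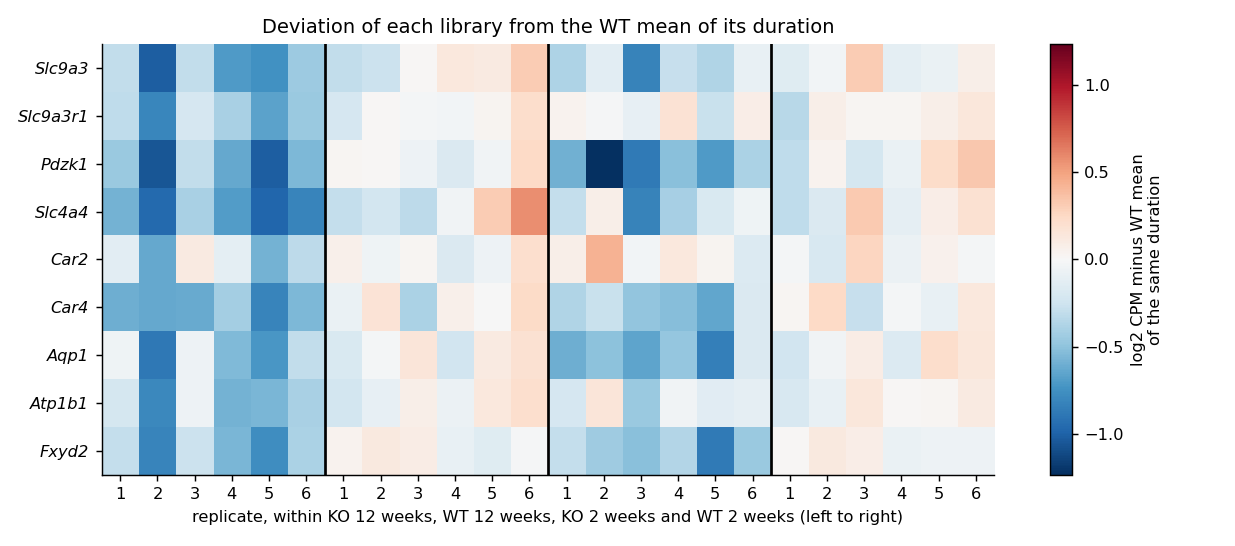
Log2 CPM of each gene in each library minus the WT mean of the same duration, with libraries as columns (KO then WT at 12 weeks, KO then WT at 2 weeks) and blue for lower. KO columns are mostly blue, KO replicates 2 and 5 at 12 weeks are darkest across genes, and the Car2 and Slc9a3r1 rows of KO at 2 weeks are near white.

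Ratios of counts within a library do not depend on library scaling, and 7 pairs were compared at both durations with a two-sided exact permutation test over 12 libraries, which can reach p = 0.00216. No difference passed after adjustment over the 14 tests, and KO and WT libraries overlapped in each. Of Fxyd2 to Atp1b1, the median count ratio was 0.926 in KO and 0.959 in WT at 12 weeks (difference of mean log2 ratios -0.08, exact p = 0.461, adjusted p = 0.506). At 2 weeks it was 0.762 in KO and 0.914 in WT (-0.36, exact p = 0.0281, adjusted p = 0.106). Car2 to Car4 stood at 3.14 in KO and 2.53 in WT at 12 weeks (0.32, exact p = 0.0498, adjusted p = 0.139) and at 3.25 in KO and 2.15 in WT at 2 weeks (0.49, exact p = 0.0281, adjusted p = 0.106). For Slc9a3r1 to Slc9a3, scaffold to exchanger, it was 2.04 in KO and 1.76 in WT at 2 weeks (0.33, exact p = 0.0303, adjusted p = 0.106).

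Other genes of the same pathway, 101 in 9 lists of which 91 were tested, were set beside the 9. At 12 weeks 42 of the 91 were lower and 14 higher in KO by edgeR's test, with a median log2 fold change of -0.27. These were 46.2% and 15.4% of the 91, against 17.7% lower and 20.7% higher among all tested genes. At 2 weeks 30 were lower and 9 higher, with a median of -0.17. These were 33.0% and 9.89% of the 91, against 13.4% lower and 18.2% higher among all tested genes. The lists were chosen with earlier results of these data known, so these shares are given as a description. None passed the interaction test. The genotype counts of the pathway and marker lists below stand beside the same shares of all tested genes.

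The subunits of the vacuolar proton ATPase, which secretes protons in proximal and intercalated cells, were lower for 17 of 20 at 12 weeks and 9 of 20 at 2 weeks, with none higher. Atp6v1e1 had a log2 fold change of -0.42 (SE 0.08) at 12 weeks and -0.26 (SE 0.07) at 2 weeks. For Atp6v0c these values were -0.33 (SE 0.08) and -0.35 (SE 0.07), and for Atp6v1b1, the subunit of intercalated cells, -0.39 (SE 0.08) and -0.47 (SE 0.09). Of 13 sodium-proton exchangers and apical scaffolds, 7 were lower at 12 weeks and 6 at 2 weeks. Slc9a8, another exchanger of the brush border, stood at -0.91 (SE 0.13) at 12 weeks and -0.72 (SE 0.11) at 2 weeks, and Slc9a2 at -0.51 (SE 0.09) and -0.44 (SE 0.08). Msn, which encodes moesin, an actin linker abundant in leukocytes and endothelium, was the 1 gene of that list that rose, by 0.69 (SE 0.09) at 12 weeks and 1.02 (SE 0.08) at 2 weeks.

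Among the 10 tested sodium pump subunits and FXYD proteins other than Atp1b1 and Fxyd2, 6 rose and 1 fell at 12 weeks, and 4 rose at 2 weeks. Fxyd5 rose by 1.47 (SE 0.21) at 12 weeks and 1.64 (SE 0.13) at 2 weeks, and Fxyd6 by 1.17 (SE 0.20) and 0.72 (SE 0.20).

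Of 11 other carbonic anhydrases 3 were lower and 1 higher at 12 weeks, and 5 lower and 1 higher at 2 weeks. Car14, a membrane enzyme of the proximal tubule, stood at -0.48 (SE 0.16) at 12 weeks and -0.86 (SE 0.15) at 2 weeks. Car3 fell by 1.42 (SE 0.23) at 2 weeks, and at 12 weeks its value was 0.21 (SE 0.48), which did not pass. Car13, a cytosolic enzyme, was the 1 that rose, by 1.07 (SE 0.17) at 12 weeks and 1.16 (SE 0.17) at 2 weeks. It had few counts, with medians of 7.27 CPM in KO and 3.73 CPM in WT at 12 weeks, and 6.66 and 3.02 CPM at 2 weeks. Car14 shares 445 of 2543 exon bases with Aph1a on the opposite strand, and how reads there were counted is not known. Of 7 bicarbonate and anion transporters, Slc26a1 was lower at both durations, at -0.64 (SE 0.12) and -0.39 (SE 0.11), and Slc4a2 was higher at 12 weeks, at 0.23 (SE 0.06), with 0.01 (SE 0.07) at 2 weeks. Slc4a2 shares 1141 of 8322 exon bases with Fastk on the opposite strand, and Slc26a1 141 of 4050 with Idua.

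Of 8 other aquaporins 3 fell at 12 weeks and 4 at 2 weeks. Aqp3, the basolateral channel of principal cells, stood at -1.11 (SE 0.17) at 12 weeks and -0.89 (SE 0.10) at 2 weeks, and Aqp11 at -0.58 (SE 0.14) and -0.58 (SE 0.10). Aqp9, a channel for glycerol and water known from liver and leukocytes, was called higher at both durations by edgeR's test but lay near 0 in WT, so no fold is given. Its lowest, median and highest levels at 12 weeks were 0.279, 0.69 and 2.18 CPM in KO, against 0, 0.227 and 0.293 CPM in WT. At 2 weeks they were 0.278, 0.579 and 0.621 CPM in KO, against 0, 0.026 and 0.067 CPM in WT. Of 6 genes of potassium channels and their subunits 4 fell at 12 weeks and 2 at 2 weeks, led by Kcne1 at 12 weeks (-1.05, SE 0.14), which stood at -0.22 (SE 0.14) at 2 weeks and did not pass there. Kcnj15 had -0.59 (SE 0.13) at 12 weeks and, without passing, -0.34 (SE 0.15) at 2 weeks. Kcnj10 was lower at both durations, at -0.42 (SE 0.12) and -0.40 (SE 0.09).

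In the paracellular pathway, with 6 genes, 2 fell and 2 rose at 12 weeks, and 1 fell and 1 rose at 2 weeks. Cldn10 was lower at both durations, at -0.60 (SE 0.11) and -0.60 (SE 0.08). Cldn2, the claudin of the leaky proximal junction, was lower at 12 weeks, at -0.32 (SE 0.12), with -0.09 (SE 0.11) at 2 weeks. Tjp1, a junction scaffold, was higher at 12 weeks, at 0.29 (SE 0.08), and stood at 0.16 (SE 0.07) at 2 weeks, where it did not pass. Of 10 receptors and kinases that act on NHE3, 4 fell and 2 rose at 12 weeks, and 2 fell and 1 rose at 2 weeks. Pth1r, the parathyroid hormone receptor, stood at -0.49 (SE 0.10) and -0.41 (SE 0.10), and Wnk1 at -0.23 (SE 0.08) and -0.44 (SE 0.09). Agtr1a, the angiotensin II receptor, passed at 12 weeks, at -0.46 (SE 0.09), with -0.07 (SE 0.08) at 2 weeks. Prkg2, a cGMP-dependent kinase, rose by 1.02 (SE 0.25) and 1.27 (SE 0.30), and Adora1 by 0.93 (SE 0.24) at 12 weeks. Both had few counts. At 12 weeks the median of Prkg2 was 2.01 CPM in KO and 0.991 CPM in WT, and that of Adora1 7.60 and 4.32 CPM.

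**Figure D5:**
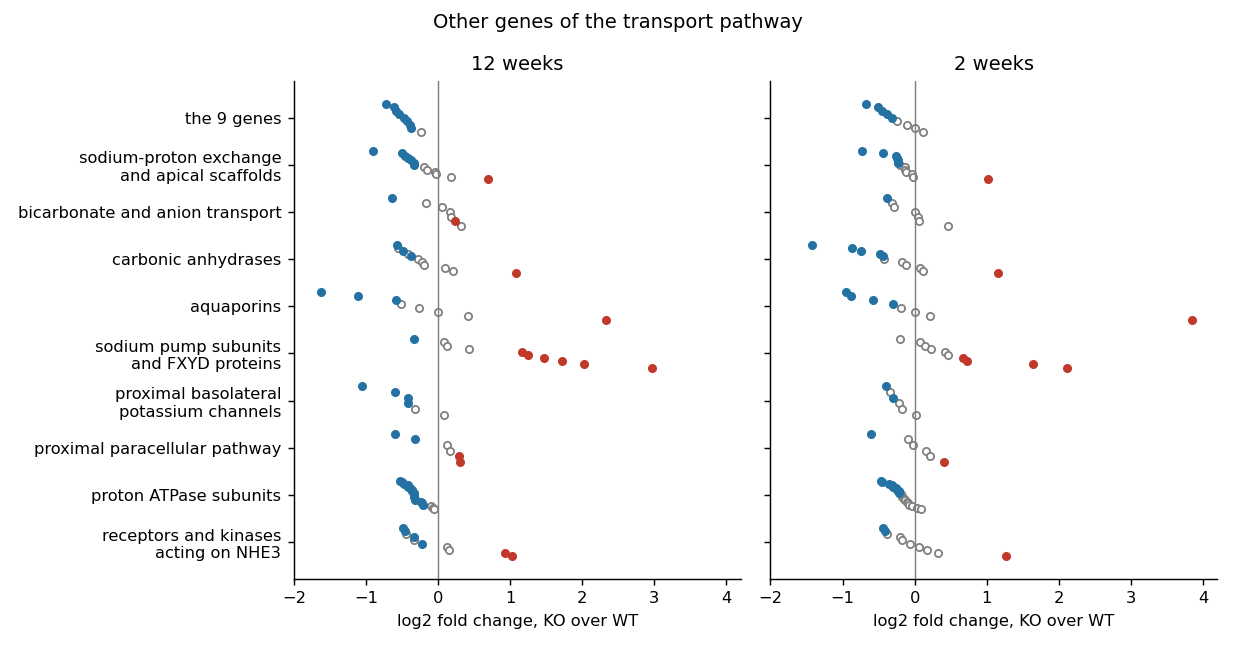
Log2 fold change of KO over WT at 12 weeks (left) and 2 weeks (right) for the 9 genes and the 91 tested genes of 9 other lists, blue or red where lower or higher at an adjusted p under 0.05 and open where not. Proton ATPase subunits lie mostly to the left of 0. Aqp9, the point farthest to the right at 2 weeks, lay near 0 CPM in WT, so its place on the axis depends on the prior count.

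Markers of the cell types in the kidney moved with the genotype beside the 9 genes. Of 17 proximal tubule markers, none of them among the 9 and Lrp2 left out as the deleted gene, 15 were lower in KO at 12 weeks and 13 at 2 weeks, with medians of -0.66 and -0.52 on the log2 scale. Their summed level was 13260 to 20120 CPM in KO, against 24500 to 32450 CPM in WT, at 12 weeks. At 2 weeks the sum was 12690 to 19890 CPM in KO, against 20240 to 25710 CPM in WT, so KO and WT did not overlap at either duration. KO replicate 2 at 12 weeks, lowest for most of the 9 genes, also had the lowest sum of its group, and WT replicate 6 the highest. KO replicate 3 at 12 weeks, highest for 7 of the 9, had 18910 CPM, below the 20120 CPM of KO replicate 1. At 2 weeks WT replicate 1, lowest for 6, had the lowest sum of its group. KO replicate 5 at 2 weeks, lowest for 4, had 14540 CPM, above the 12690 CPM of KO replicate 3. No marker was at 0 over a whole group in any of the marker lists.

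The 9 macrophage markers were all higher in KO at both durations, summing to 1201 to 2511 CPM in KO, against 271 to 634 CPM in WT, at 12 weeks and to 976.5 to 2163 CPM in KO, against 301 to 394 CPM in WT, at 2 weeks. The 8 tubular injury markers were all higher too, with 2468 to 5463 CPM in KO, against 458 to 590.0 CPM in WT, at 12 weeks, and 5156 to 10900 CPM in KO, against 556 to 707 CPM in WT, at 2 weeks. Of 7 fibroblast markers 7 were higher at 12 weeks and 6 at 2 weeks, with 544 to 1435 CPM in KO, against 116 to 403 CPM in WT, at 12 weeks, and 499.9 to 1374 CPM in KO, against 124 to 179.8 CPM in WT, at 2 weeks. KO and WT sums did not overlap in these 3 lists.

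For the other places where Aqp1 and Car2 are known, the 8 intercalated cell markers were lower for 5 at 12 weeks and 7 at 2 weeks, summing to 218 to 290.3 CPM in KO, against 366 to 441 CPM in WT, at 12 weeks and 273 to 328 CPM in KO, against 429 to 558 CPM in WT, at 2 weeks. The 4 descending thin limb markers were higher for 2 at both durations and lower for 1 at 2 weeks, summing to 41.2 to 77.6 CPM in KO, against 7.46 to 61.7 CPM in WT, at 12 weeks and 51.3 to 83.6 CPM in KO, against 54.7 to 84.6 CPM in WT, at 2 weeks. Of 10 endothelial markers 4 were lower at 12 weeks and 3 at 2 weeks, with 489.8 to 793 CPM in KO, against 622 to 923 CPM in WT, at 12 weeks and 504 to 590.1 CPM in KO, against 551 to 708 CPM in WT, at 2 weeks.

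For the segments where Atp1b1 and Fxyd2 are also known, 1 of 7 thick ascending limb markers was lower and 2 higher at 12 weeks, with 2034 to 4561 CPM in KO, against 2721 to 3730.0 CPM in WT, and 4 were lower at 2 weeks, with 3838 to 4610.0 CPM in KO, against 4499 to 5661 CPM in WT. Of 6 distal convoluted and connecting tubule markers 2 were lower and 1 higher at 12 weeks, with 704 to 1331 CPM in KO, against 1238 to 1651 CPM in WT. At 2 weeks 3 were lower and 1 higher, with 1304 to 2350.0 CPM in KO, against 2505 to 3459 CPM in WT. Of 6 principal cell markers 3 were lower at 12 weeks, with 137 to 197 CPM in KO, against 194 to 275 CPM in WT, and none passed at 2 weeks, with 242.5 to 318 CPM in KO, against 254 to 316 CPM in WT. The part of these marker changes in the levels of the 9 genes was not tested.

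For each of the 9 genes, the 3 other tested genes with the most similar course were taken by Pearson correlation over the 24 libraries of log2 CPM centred on the mean of its duration. Such values share library, scaling and the difference between genotypes. Slc9a3 was nearest to Osbpl6 (r = 0.951), Slc12a7 (0.951) and Dhtkd1 (0.949), Slc9a3r1 to Glb1 (0.931), Cdhr5 (0.927) and Naglu (0.921), and Pdzk1 to Hdgf (0.963), Aldh2 (0.961) and Aifm1 (0.954). Slc4a4 was nearest to Evi5 (0.972), Dab2 (0.964) and Zdhhc5 (0.963). For Car4 the nearest were Ces2h (0.915), Abhd14a (0.912) and Cpne4 (0.91), and for Aqp1 they were Fbp1 (0.943), Upb1 (0.942) and Acss2 (0.941). Atp1b1 lay nearest to Gphn (0.935), Atp6v0a4 (0.926) and Vdac2 (0.926), and Fxyd2 to Cyc1 (0.974), Mcrip2 (0.966) and Hagh (0.965). Car2 had the least similar neighbours, Mrps18b (0.842), Guca2b (0.836) and Nsdhl (0.833), and none of these 3 passed the genotype test at either duration.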

How the data were processed

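Bulk RNA of 24 mouse kidney samples was sequenced. Each file deposited by the authors holds the raw counts of 1 library over Ensembl genes, not normalized. The submitters' processing notes name fastp, STAR 2.5, HTSeq 0.6.1 and build mm10. RNA came from a Maxwell RSC kit and cDNA libraries from a NEBNext Ultra kit, per the labels' protocols. Not given in the sources used here are tool options, the treatment of strand and the gene annotation. GENCODE M21 supplied symbols, positions and lengths and matched 54495 of 54532 identifiers.

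Groups follow the sample titles. edgeR 4.0.16 (R 4.3.3) was run with TMM scaling on the 17286 genes that filterByExpr kept over all libraries (minimum count 10, total 15). Its robust quasi-likelihood F test was two-sided, and p-values were adjusted by Benjamini-Hochberg over those genes and called at 0.05. Genotype was fitted on the 12 libraries of each duration, interaction and duration on all 24. SE is the absolute log2 fold change over the square root of F. RPKM used union exon length. In simulated data, 100 genes had a true log2 change of 1 and another 100 of 2, among 17286. The 12-week test found 69 and 93 of these with 12 false calls, the 2-week test 74 and 92 with 4, and the interaction 60 and 86 with 7. No pair of libraries was a duplicate.

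The 9 genes and all lists were chosen with earlier results of these data known. Named genes are the 9, Lrp2, up to 3 genes per pathway list with the smallest p among those that passed, those that passed against the direction of their list, and the 3 nearest in course. Some genes that this rule names are not reported here. Gm42418, Avpr2 and overlapping genes were named after their values were seen. Alternatives were RLE and upper-quartile scaling, DESeq2 1.42.0, leaving out the filter, a minimum mean of 1 CPM, a single fit of all libraries, a replicate block, removal of Gm42418 and mitochondrial genes, coding length, and each library left out.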

Additional observations from a re-analysis of the deposited data

Results flagged for a closer look

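In WT at 2 weeks, replicate 1 had 203.3 CPM of Slc9a3r1, far below the other 5 libraries of its group: its gap to the next library was 0.736 of the range of the group, above Dixon's critical value of 0.625 for 6 samples. It is the deepest library and the lowest of its group for 6 of the 9 genes. Over the 36 groups of values examined this was the 1 that stood out, and chance gives about 1 in 20 groups. Without this library the log2 fold change of Slc9a3r1 at 2 weeks was -0.042 (edgeR adjusted p = 0.744).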

How the results depend on the processing

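At 12 weeks 8 of the 9 genes passed and at 2 weeks 5; leaving out 1 library gave 7 to 9 and 4 to 5. Pdzk1, Car4 and Fxyd2 passed at both durations under all alternatives run, and no gene that passed changed direction. For Aqp1 at 12 weeks the log2 fold change was -0.35 with upper-quartile scaling (adjusted p = 0.0566), -0.37 without a filter (0.0585) and -0.37 at a mean of at least 1 CPM (0.0501), and -0.45 to -0.29 with a library left out. Slc9a3r1 at 2 weeks, near 0, took -0.0021 with RLE scaling, -0.0019 with DESeq2, -0.016 with all libraries in 1 fit, and -0.042 to 0.065 with a library left out. With a library left out, Slc9a3 at 2 weeks ranged from -0.35 to -0.23 and Car2 at 12 weeks from -0.32 to -0.16. The interaction gave 30 genes, 154 with DESeq2 and 22 to 56 with a library left out. Without a filter the interaction of Fxyd2 was 0.0056 and the duration difference of Slc4a4 in WT -0.012; with a library left out, the interaction ranged from -0.073 to 0.056 for Fxyd2 and -0.016 to 0.15 for Pdzk1. Duration differences then ranged from -0.064 to 0.087 for Car2 in KO, -0.11 to 0.11 for Slc4a4 and -0.084 to 0.061 for Slc9a3 in WT, none of which passed; 3 to 6 of the 9 genes passed in KO. The cause of these shifts was not tested. The labels number replicates alike, but equal numbers did not deviate together (correlation of residuals -0.28 to 0.17; in KO and WT of a duration, 1 of 6 KO libraries at 12 weeks and 0 at 2 weeks correlated best with its own number). With the replicate block Slc9a3 at 2 weeks stood at -0.32 (adjusted p = 0.0617) and no other genotype call among the 9 genes changed at either duration.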
